A study of Mus musculus with 18 samples.

Results

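Oligodendrocyte lineage and myelin genes were followed as a set of 37 gene symbols of the 55291 in the deposited tables, listed by name with no threshold on values, and all 37 were found. They comprised 14 genes of the myelin sheath and its axonal contacts, 7 lipid and metabolic enzymes, 7 transcription factors, 5 cytoskeletal, iron and stress genes and 4 genes of precursor and committed precursor cells. For the comparison of stages, the 4 precursor genes (Pdgfra, Cspg4, Gpr17 and Lhfpl3) were set against 16 mature myelin genes, which were Mbp, Mog, Mobp, Mag, Cnp, Cldn11, Mal, Opalin, Ermn, Ugt8a, Fa2h, Aspa, Hapln2, Tmem88b, Ppp1r14a and Myrf.

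The study sequenced RNA of the right hippocampus of male wild-type C57BL/6J mice. All mice, controls included, were injected at 6 weeks of age into the right CA3 with an AAV that carried EGFP-Rpl10a, a GFP-tagged ribosomal protein, under the astrocyte promoter GfaABC1D. The AAV control group received no other injection and was collected 2 weeks later. The KA group received kainic acid, a glutamate receptor agonist, in the right dentate gyrus 2 weeks after the AAV and was collected 14 days after KA, so KA and the longer time after AAV cannot be told apart between these groups. The PBS group received PBS after the AAV, and its time of collection is not given in the sources used here. Each of the 3 samples of a condition pooled 3 to 4 mice and gave an IP library, made with an anti-GFP antibody from RNA on tagged ribosomes, and an input library from a portion of that homogenate, which holds RNA of all hippocampal cells although the labels name astrocytes for input too. Run 1 of the sequencer held the KA and AAV control libraries #1 and #2, run 2 their libraries #3, and run 3 all PBS libraries, so that PBS and run cannot be told apart.

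Oligodendrocytes arise from precursor cells that carry the receptor Pdgfra and the proteoglycan Cspg4 (NG2), pass through a committed stage marked by Gpr17, and then express the proteins and lipid enzymes that build compact myelin around axons. Olig1, Olig2 and Sox10 act through the lineage, whereas Myrf and Nkx6-2 belong to the differentiating and mature cell. In the adult hippocampus myelin is made by oligodendrocytes and not by astrocytes. Some members, among them Gsn, Car2, Cntn2 and Qdpr, are also known from other cells.

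Promoter sequences are shown for 3 mature genes (Opalin, Ppp1r14a and Tmem88b) that hold a match to a run of letters searched for lineage factors. They are also shown for 2 precursor genes whose levels moved differently from the mature genes. The sequences run from 250 bases before to 50 bases after the RefSeq start on GRCm38.p6, 5′ to 3′ on the strand of the gene. Capitals mark matches on either strand to ACAAAG and ACAATG (SOX cores), CAGCTG (E-box) and CTGGNAC (searched for MYRF, with any base at N).
Opalin, chr19:41077064-41077363, minus strand: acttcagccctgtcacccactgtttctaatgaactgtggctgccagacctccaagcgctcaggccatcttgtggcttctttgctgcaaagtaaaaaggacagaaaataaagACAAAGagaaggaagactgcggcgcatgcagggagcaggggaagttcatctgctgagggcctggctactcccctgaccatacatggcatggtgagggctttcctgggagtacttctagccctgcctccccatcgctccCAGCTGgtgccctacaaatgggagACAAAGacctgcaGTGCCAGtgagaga
Ppp1r14a, chr7:29289070-29289369, plus strand: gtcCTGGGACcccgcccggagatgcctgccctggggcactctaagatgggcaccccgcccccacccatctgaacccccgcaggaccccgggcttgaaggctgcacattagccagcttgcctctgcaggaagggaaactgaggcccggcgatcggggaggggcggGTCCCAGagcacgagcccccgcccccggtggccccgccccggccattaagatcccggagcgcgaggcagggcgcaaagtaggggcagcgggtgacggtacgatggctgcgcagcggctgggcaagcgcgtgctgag
Tmem88b, chr4:155785825-155786124, minus strand: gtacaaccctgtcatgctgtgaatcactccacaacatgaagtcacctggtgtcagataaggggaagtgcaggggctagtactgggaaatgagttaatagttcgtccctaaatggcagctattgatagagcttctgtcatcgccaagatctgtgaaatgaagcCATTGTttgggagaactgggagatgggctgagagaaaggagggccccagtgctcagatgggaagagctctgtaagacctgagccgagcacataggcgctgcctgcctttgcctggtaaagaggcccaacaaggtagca
Pdgfra, chr5:75152001-75152300, plus strand: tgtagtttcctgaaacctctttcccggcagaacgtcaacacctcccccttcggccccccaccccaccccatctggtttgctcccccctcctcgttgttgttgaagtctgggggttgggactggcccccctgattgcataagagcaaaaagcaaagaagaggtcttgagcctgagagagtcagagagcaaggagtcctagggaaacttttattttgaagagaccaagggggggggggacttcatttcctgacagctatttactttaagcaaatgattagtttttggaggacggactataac
Lhfpl3, chr5:22745804-22746103, plus strand: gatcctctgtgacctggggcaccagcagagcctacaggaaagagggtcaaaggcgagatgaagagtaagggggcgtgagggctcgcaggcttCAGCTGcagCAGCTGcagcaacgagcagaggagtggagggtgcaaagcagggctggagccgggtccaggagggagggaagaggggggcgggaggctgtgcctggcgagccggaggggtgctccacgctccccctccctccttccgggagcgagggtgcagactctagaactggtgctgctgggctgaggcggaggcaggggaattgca

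Of the members, 24 had promoters in the RefSeq table that were searched, 29 promoters in all. Member promoters on chromosome 18, where Mbp and Gpr17 lie, were left out, and no such limit was set on the promoters of all genes. ACAAAG was found in 20.7% of these 29 promoters and in 18.7% of all 32851 promoters of the same length, ACAATG in 17.2% against 12.6%, CAGCTG in 20.7% against 16.3% and CTGGNAC in 27.6% against 19.3%. The CTGGNAC matches were in Cnp, Gsn, Hapln2, Mag, Mog, Opalin and Ppp1r14a. Any base was allowed at N, and both matches in Ppp1r14a read CTGGGAC or its reverse complement. In the shown windows Pdgfra held no match, and Lhfpl3 held 2 E-box matches. A match is a run of letters and was not tested as a binding site.

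Library totals ranged from 7991681 to 16032180 counts. The members together took 0.97% to 1.59% of the counts of the KA IP libraries, 0.29% to 0.47% of PBS IP, and 0.27%, 0.31% and 0.86% of AAV control IP #1, #2 and #3. Input libraries lay between 0.40% and 0.65%. AAV control IP #3 therefore stood apart from the other AAV control IP libraries, and results that rest on it are given with and without it. Astrocyte markers (Aldh1l1, Aqp4, Slc1a3, Slc1a2, Gjb6, Gfap and S100b) were detected in all libraries, and the median of their IP to input ratios was 10.5, 10.3 and 6.87 in AAV control, 9.09, 8.31 and 5.08 in PBS and 2.98, 3.73 and 3.05 in KA.

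**Figure D1:**
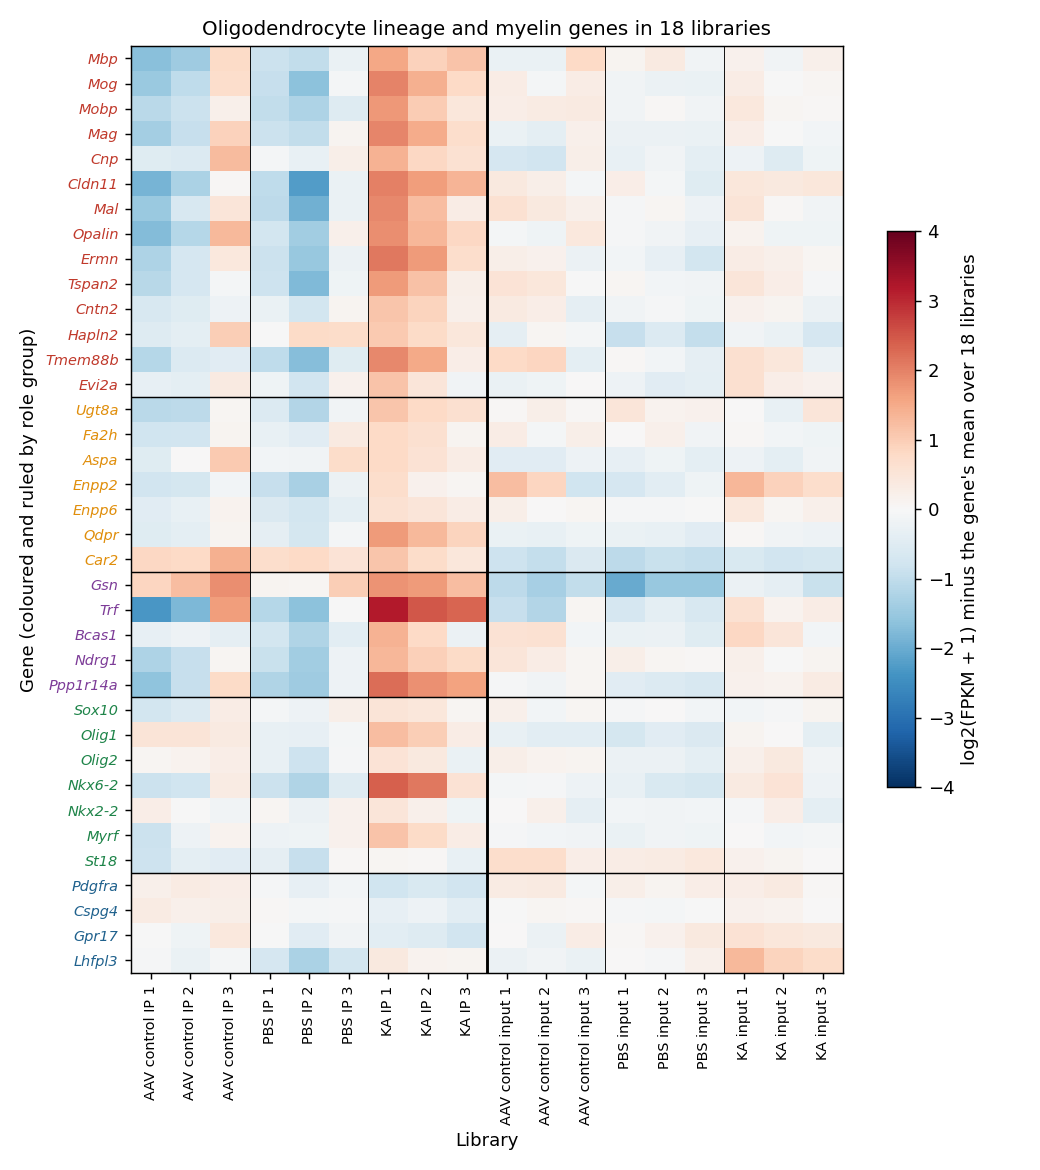
Levels of the 37 genes in all 18 libraries, drawn as log2(FPKM + 1) minus the mean of the gene over the 18 libraries (colour scale), with libraries in columns and genes in rows by role group. The 3 KA IP columns are above the mean for most genes of the first 3 role groups, AAV control IP #3 is closer to them than the other AAV control IP columns, and Pdgfra, Cspg4 and Gpr17 are below their means in KA IP.

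The first comparison asked which members differed between KA and AAV control in the IP libraries. Of the 15 mature myelin genes tested, 6 rose after KA (Cldn11, Ermn, Mobp, Ppp1r14a, Tmem88b and Ugt8a) and 9 were not called. FPKM is a count scaled to gene length and library size, and 31 members had FPKM above 1 in all 6 libraries and entered the test. A gene was called when edgeR's quasi-likelihood test over all tested genes gave a Benjamini-Hochberg adjusted p under 0.05 and the log2 fold change was at least 1 in size. Of the 31 members, 12 were called higher and 0 lower, where 6.39% of all 9729 tested genes were called higher and 5.22% lower. The median log2 fold change was 1.47 over the members tested and -0.02 over all genes tested. Every KA library lay above every AAV control library for 18 of the 31, a pattern shown by 16.8% of all genes tested.

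Among genes of the sheath and its contacts, 6 of 14 tested members rose and 8 were not called. Cldn11, the claudin of myelin tight junctions, had 92.1, 72.2 and 56.9 FPKM in KA IP #1, #2 and #3, against 5.31, 8.50 and 22.3 in AAV control IP. Its groups did not overlap, and it rose by 2.60 (SE 0.53, edgeR adjusted p = 0.0139) on the log2 scale. Tmem88b had 53.1, 39.8 and 16 FPKM in KA IP and 5.44, 8.71 and 9.38 in AAV control IP, again without overlap, with a log2 fold change of 2.21 (SE 0.41, adjusted p = 0.00958). Ermn, which encodes the cytoskeletal protein ermin, had 53.1, 40.5 and 19.6 FPKM against 4.39, 6.90 and 15.9, and its log2 fold change was 2.03 (SE 0.53, adjusted p = 0.0334). KA IP #3 was the lowest KA library for these 3 genes, and the AAV control library nearest to it was #3. Tspan2, a tetraspanin, had 57.6, 39.8 and 20.1 FPKM against 7.26, 10.3 and 16.1, a log2 fold change of 1.80 (SE 0.42, adjusted p = 0.0220). Mobp and the axonal adhesion gene Cntn2 were the other 2 called, at log2 fold changes of 1.64 and 1.47. The 8 sheath genes that were not called had log2 fold changes between 0.62 (Cnp) and 1.75 (Mog).

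Mbp, the major protein of compact myelin, was one of these and is shown because of its level, chosen after its values were seen. It had 772, 494 and 581 FPKM in KA IP and 80.8, 98.3 and 449 in AAV control IP. The groups did not overlap, but AAV control IP #3 was close to the lowest KA library, and the log2 fold change of 1.54 (SE 0.68) had an adjusted p of 0.157. With the sample number as a replicate block the log2 fold change of Mbp was 2.07 (adjusted p = 0.0276), and in run 1 alone it was 2.89 (adjusted p = 1.92e-06). Mbp was not called by limma voom, or with any library other than AAV control IP #3 left out. In run 2 the only pair, KA IP #3 and AAV control IP #3, had 581 against 449 FPKM, with no test.

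Opalin, a membrane protein of oligodendrocytes that was also chosen after its values were seen, had 86.9, 59.3 and 42.3 FPKM in KA IP and 6.22, 10.01 and 59.0 in AAV control IP. AAV control IP #3 lay within the KA range, and the log2 fold change of 1.27 (SE 0.80, adjusted p = 0.304) was not called. Without AAV control IP #3 Opalin was called, at 3.05 (SE 0.32, adjusted p = 0.000448). It was also called in run 1 alone, with the run as a covariate and without the FPKM filter. It was not called by DESeq2, by limma voom, with the replicate block or with any other library left out.

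Of the lipid and metabolic enzymes, 2 of 6 tested members rose. Qdpr, which regenerates tetrahydrobiopterin, had 531, 401 and 303 FPKM in KA IP and 117, 125 and 176 in AAV control IP, with no overlap and a log2 fold change of 1.58 (SE 0.28, adjusted p = 0.00803). Ugt8a, which makes the myelin lipid galactosylceramide, had 10.1, 8.0 and 7.08 FPKM against 1.45, 1.52 and 4.42, a log2 fold change of 1.75 (SE 0.46, adjusted p = 0.0335). Fa2h, Aspa, Enpp2 and Car2 were not called, and Car2, a carbonic anhydrase, had the only negative log2 fold change of the 31 members (-0.23, adjusted p = 0.607). Enpp6 was below the filter.

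Of the cytoskeletal, iron and stress genes, 3 of 5 rose. Ppp1r14a, an inhibitor of myosin phosphatase, had 131, 99.0 and 84.3 FPKM in KA IP and 8.13, 13.8 and 46.3 in AAV control IP, without overlap, and a log2 fold change of 2.17 (SE 0.62, adjusted p = 0.0431). Ndrg1 had 21, 15.9 and 13.9 FPKM against 2.75, 3.65 and 8.24, a log2 fold change of 1.79 (SE 0.43, adjusted p = 0.0245). Bcas1, a gene of newly myelinating oligodendrocytes, had 43.3, 28.5 and 13.3 FPKM against 12.4, 13.6 and 12, so that KA IP #3 lay within the AAV control range, and its log2 fold change was 1.18 (SE 0.34, adjusted p = 0.0426).

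Trf, which encodes the iron carrier transferrin, was also examined after its values were seen. It had 579, 364 and 327 FPKM in KA IP against 11.8, 17.5 and 206 in AAV control IP. It was not called (log2 fold change 2.37, SE 1.04, adjusted p = 0.150). Leaving out AAV control IP #3 gave a log2 fold change of 4.96 (adjusted p = 0.000100), and the replicate block gave 3.78 (adjusted p = 0.0308). Trf was not called by DESeq2 or limma voom, or with any other library left out. Gsn, the actin-severing protein gelsolin, had 112, 104 and 75.2 FPKM in KA IP and 57.9, 75.5 and 117 in AAV control IP, and these ranges overlapped.

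Among the transcription factors, 1 of 5 tested members rose. Nkx6-2, a homeodomain factor of oligodendrocytes, had 48.2, 39.8 and 13.0 FPKM in KA IP and 4.18, 4.44 and 10.9 in AAV control IP, with a log2 fold change of 2.33 (SE 0.55, adjusted p = 0.0220). Sox10, Olig1, Olig2 and St18 were not called, at log2 fold changes between 0.13 and 0.77. Olig1 had 121, 102 and 61.7 FPKM in KA IP and 71.8, 72.5 and 65.1 in AAV control IP, so its groups overlapped. Nkx2-2 and Myrf were below the filter.

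**Figure D2:**
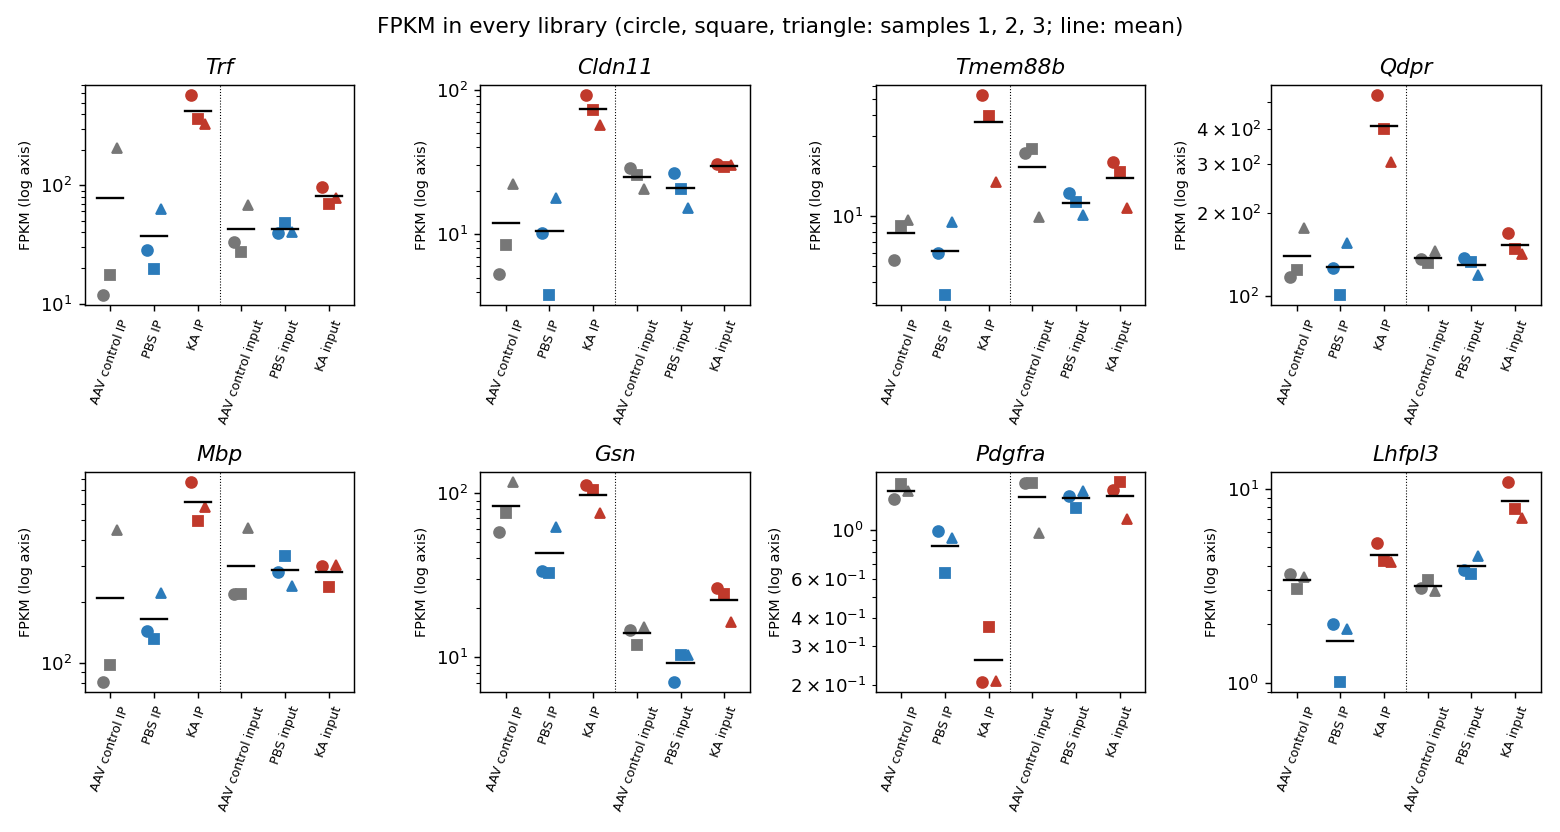
FPKM (log axis) of 8 members in every library, by condition and by IP or input, with symbols for samples #1, #2 and #3 and a line at the mean of 3. Trf, Cldn11, Tmem88b, Qdpr and Mbp are highest in KA IP with AAV control IP #3 above the other AAV control IP libraries, Gsn overlaps between KA and AAV control IP, Pdgfra is lowest in KA IP, and Lhfpl3 is highest in KA input.

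The result depended on AAV control IP #3 and on the handling of runs. Without AAV control IP #3, 25 members were called higher, where 8.79% of all tested genes were. In run 1 alone 26 members were called higher (8.43% of all tested genes), with the run as a covariate 19 (7.38%), and with the replicate block 16 (7.19%). Leaving out KA IP #1 left 4 members called higher (5.15% of all tested genes), KA IP #2 4 (4.7%), AAV control IP #1 4 (4.7%), AAV control IP #2 3 (4.71%) and KA IP #3 8 (5.4%). Within run 1 the FPKM of both KA IP libraries exceeded both AAV control IP libraries for 32 of the 37 members and for 16 of the 16 mature genes, and the median ratio of KA to AAV control means was 3.57. Within run 2 KA IP was higher for 21 of the 37 and the median ratio was 1.11, from 1 library a group. The shares of all genes with these patterns are not given here, so the counts alone do not set the members apart.

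Markers of other cells also differed between these IP groups. The summed FPKM of 7 neuron markers was 281 to 346 in KA IP. It was 124 to 144 in AAV control IP and 123 to 215 in PBS IP. Of these 7, 5 were called higher in KA IP against AAV control and 1 against PBS. The sum of 6 microglia markers was 19.8 to 39.0 in KA IP, 8.38 to 13.2 in AAV control IP and 9.39 to 14.6 in PBS IP. Of 3 tested, 2 were called higher against each control. The sum of 5 endothelial markers was 4.07 to 5.55 in KA IP, 9.78 to 15.1 in AAV control IP and 5.25 to 16.9 in PBS IP. Of 2 tested, 1 was called lower against each control. Pericyte and fibroblast sums were also lower in KA IP than in AAV control IP, with none called. The sum of 7 astrocyte markers was 5074 to 6089 in KA IP, 3100 to 3968 in AAV control IP and 2824 to 4615 in PBS IP. Of these 7, 1 was called higher and 2 lower in KA IP against each control. Gfap averaged 3684 FPKM in KA IP, 677 in AAV control IP and 946 in PBS IP. Slc1a2 averaged 480, 1359 and 1486 FPKM in the same order. No marker of these lists was at 0 in all libraries of a group, and their part in the members' differences was not tested. In bulk RNA, more cells of a type and more RNA per cell cannot be told apart.

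Against PBS, which shares the KA libraries with the comparison above, 32 members were tested in IP, 24 were called higher and 0 lower, where 8.08% of all 9847 tested genes were called higher and 9.34% lower. The median log2 fold change was 1.67 over the members tested and -0.01 over all genes tested, and every KA library lay above every PBS library for 24 of the 32 (22.7% of all genes tested). By role, 12 of 14 sheath genes, 3 of 6 enzymes, 5 of 5 cytoskeletal, iron and stress genes, 3 of 6 transcription factors and Lhfpl3 of the precursor genes rose.

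Trf had 28.3, 19.7 and 62.7 FPKM in PBS IP and the largest change of the members tested, a log2 fold change of 3.56 (SE 0.41, adjusted p = 0.000182). Nkx6-2 had 4.16, 3.08 and 5.59 FPKM in PBS IP, and its log2 fold change was 2.96 (SE 0.38, adjusted p = 0.000362). Ppp1r14a had 11.2, 9.35 and 23.0 FPKM in PBS IP and a log2 fold change of 2.88 (SE 0.28, adjusted p = 6.07e-05). None of these overlapped with KA IP.

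Cldn11 had 10.3, 3.79 and 17.8 FPKM in PBS IP (log2 fold change 2.84, SE 0.38, adjusted p = 0.000473), and Mbp had 144, 131 and 219 (log2 fold change 1.92, SE 0.36, adjusted p = 0.00276). Gsn had 33.6, 32.8 and 62.3 FPKM in PBS IP, all below KA IP, and a log2 fold change of 1.20 (SE 0.24, adjusted p = 0.00371). Car2, Aspa, Evi2a, Fa2h, Hapln2, Olig2, Sox10 and St18 were the 8 tested members that were not called, at log2 fold changes between 0.08 and 0.88. Of the 24 members called, 21 were called under every alternative tried.

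PBS and AAV control were compared to see how the control groups differed. In IP 0 of 31 members were called by edgeR (0.0% of all genes tested in either direction), and DESeq2 and limma voom also called 0 members. By edgeR 5 members had an unadjusted p under 0.05, as had 1153 of all 10667 genes tested. These 5, Bcas1, Gsn, Lhfpl3, Olig1 and Olig2, all had lower levels in PBS IP, at log2 fold changes between -0.48 (Bcas1) and -1.03 (Lhfpl3). Without AAV control IP #3, Trf and Hapln2 were called higher in PBS, where 366 of all 10951 genes tested were called higher. The direction of Trf turned, from a log2 fold change of -1.19 (adjusted p = 0.619) with all libraries and -1.31 (adjusted p = 0.0107) without the FPKM filter to 1.37 (adjusted p = 0.0479) without that library. The median log2 fold change of the members turned likewise, from -0.39 to 0.42. In input 0 of 33 members were called by edgeR, DESeq2 and limma voom (0.0% of all genes tested in either direction by edgeR), and 9 had an unadjusted p under 0.05, as had 901 of all 10924 genes tested. All of these 9 but Lhfpl3 were lower in PBS input, and every PBS library lay below every AAV control library for 12 of the 33 members and for 5.9% of all genes tested.

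In input, which holds RNA of all hippocampal cells, few members were called between KA and the controls. Against AAV control 1 of 33 tested members, Lhfpl3, was called higher (2.52% of all 10809 tested genes), and the median log2 fold change was 0.07 over the members and -0.03 over all genes tested. Against PBS, which shares the KA libraries, Lhfpl3, Enpp2 and Gsn were called higher of 35 tested (4.26% of all 10849 genes), with a median log2 fold change of 0.32 over the members and 0.01 over all genes tested. Neither set of calls held a sheath gene. Every KA input library lay above every AAV control library for 6 of the 33 members (12.2% of all genes tested) and above every PBS library for 19 of the 35 (18.4%). Against PBS, Ppp1r14a (log2 fold change 0.79, SE 0.14, adjusted p = 0.00274) and Ermn (0.58, SE 0.18, adjusted p = 0.0381) were among those that passed the adjusted p but not the required size.

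Mbp had 298, 237 and 303 FPKM in KA input, 218, 218 and 457 in AAV control input and 280, 335 and 237 in PBS input, and these ranges overlapped. Cldn11 had 30.5, 29.1 and 30.2 FPKM in KA input, 28.7, 25.8 and 20.7 in AAV control input and 26.6, 20.6 and 15.2 in PBS input. Its KA libraries were all above both control groups, but the log2 fold changes of 0.27 (SE 0.14, adjusted p = 0.350) and 0.50 (SE 0.20, adjusted p = 0.0889) were not called.

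Trf had 96.9, 70.1 and 78.7 FPKM in KA input, 33.3, 27.5 and 67.9 in AAV control input and 39.3, 47.9 and 40.6 in PBS input, and its KA libraries were above all control libraries. Its log2 fold change of 0.90 (SE 0.37, adjusted p = 0.243) against AAV control was not called, but with the replicate block it was 1.04 (adjusted p = 0.0284) and was called. Against PBS it was 0.93 (SE 0.14, adjusted p = 0.000985), below the required size of 1.

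Gsn had 26.2, 24.2 and 16.5 FPKM in KA input, 14.7, 11.9 and 15.3 in AAV control input and 7.06, 10.2 and 10.3 in PBS input. Its log2 fold change against PBS was 1.26 (SE 0.15, adjusted p = 0.000239) and against AAV control 0.66 (SE 0.19, adjusted p = 0.101). St18, a zinc finger factor, was the only tested member whose KA input libraries all lay below those of AAV control, with 3.36, 3.25 and 2.93 against 5.35, 5.38 and 3.69 FPKM, and it was not called (log2 fold change -0.58, SE 0.15, adjusted p = 0.0816).

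Enpp2 encodes autotaxin and is also known from the choroid plexus. It had 71.3, 53.8 and 45.9 FPKM in KA input, 67.0, 51.3 and 15.5 in AAV control input and 17.1, 20.4 and 24.3 in PBS input, and was called higher against PBS (log2 fold change 1.46, SE 0.14, adjusted p = 5.31e-05). The summed FPKM of 6 choroid plexus markers (Ttr, Kl, Folr1, Clic6, Aqp1 and Kcnj13) in the same libraries was 4484, 3837 and 2489 in KA, 2985, 2118 and 16.2 in AAV control and 18.8, 250.1 and 290.4 in PBS. Its libraries of high Enpp2 were thus those with high choroid plexus markers, and the part of these cells in the difference was not tested. The sum of 6 microglia markers in input was 643 to 1162 in KA, 71.6 to 110.3 in AAV control and 83.5 to 89.4 in PBS.

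**Figure D3:**
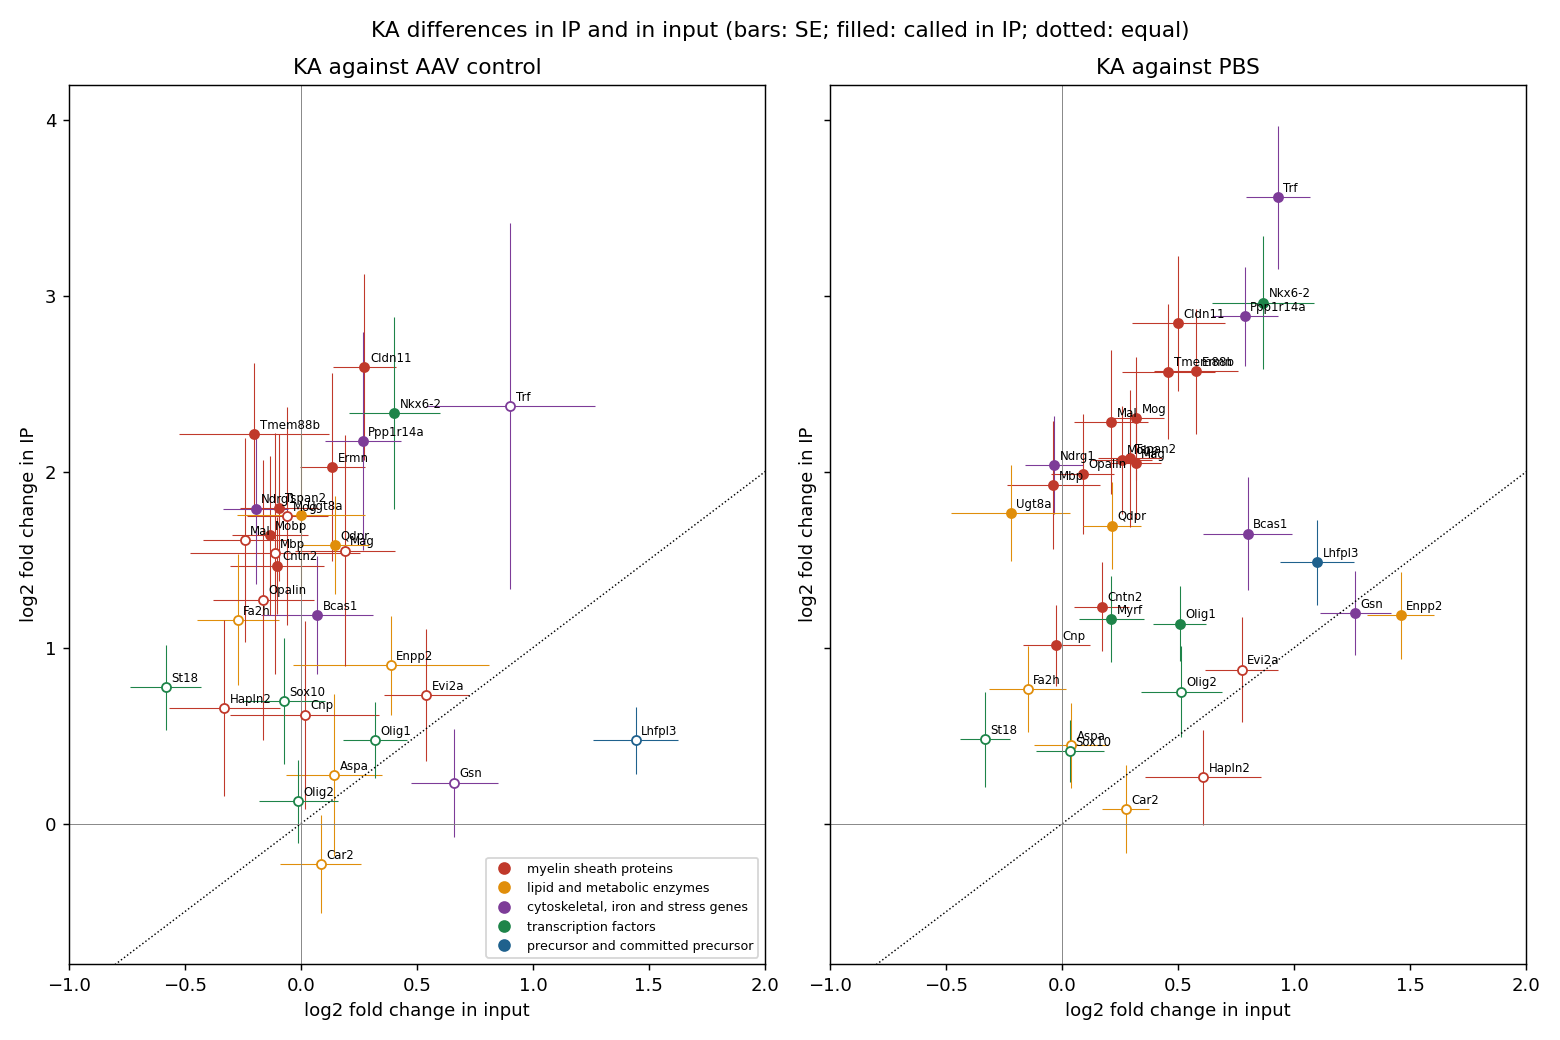
log2 fold changes of the members in input (horizontal) and in IP (vertical), KA against AAV control (left) and against PBS (right), with SE bars, colours for role groups, filled points for members called in IP and a dotted line where both are equal. Most sheath genes lie near 0 in input and above 1 in IP, Lhfpl3 lies to the right of the line against AAV control, and both panels share the KA libraries.

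The difference between the KA effect in IP and the KA effect in input was tested directly as an interaction, because a gene called in IP and not in input need not differ between them. With AAV control as baseline, 8 of 31 members had a larger KA effect in IP and 0 a smaller one (5.09% of all 9180 tested genes were called in the direction of IP). The 8 were Cldn11, Cntn2, Mobp, Ndrg1, Qdpr, St18, Tmem88b and Tspan2. Tmem88b had the largest difference, 2.43 (SE 0.58, adjusted p = 0.0167), and Cldn11 the next, 2.34 (SE 0.59, adjusted p = 0.0219). Lhfpl3 differed by -0.96 (SE 0.25, adjusted p = 0.0268), just under the required size. The filter left out Pdgfra, Cspg4 and Gpr17. Without it 22 of the 37 members had a larger KA effect in IP and these 3 a smaller one. Of all 34618 genes in that fit, 943 were called larger and 750 smaller.

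With each homogenate as a replicate block, which pairs the IP and input of the same mice, 21 members were called (6.68% of all genes tested), and without AAV control sample #3 23 were (6.91%). Without KA sample #1 or #2, edgeR called none of the members, without AAV control sample #1 1 was, and without AAV control sample #2 St18 was called with a larger and Lhfpl3 with a smaller KA effect in IP. With PBS as baseline, which shares the KA libraries, 18 of 32 members had a larger KA effect in IP and 0 a smaller one (4.98% of all 9305 tested genes). The largest were Trf at 2.64 (SE 0.42, adjusted p = 0.000858) and Cldn11 at 2.35 (SE 0.47, adjusted p = 0.00330). Without the filter, with PBS as baseline, 23 members had a larger KA effect in IP and 1, Pdgfra, a smaller one. Of all 39047 genes in that fit, 1175 were called larger and 1460 smaller.

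IP was then compared with input within each condition. In KA, 24 of 33 tested members were higher in IP and 0 lower (8.11% of all 10098 tested genes were higher), with a median log2 fold change of 1.31 against 0.01 over all genes tested. In AAV control, 3 of 31 members were higher (13.3% of all 9961 tested genes) and 2 lower (13.1%), and in PBS 3 of 32 were higher (14.8% of all 10401 tested genes) and 1 lower (12.3%). With the homogenate as a replicate block, 3 members were lower in PBS IP, Cldn11, Lhfpl3 and Ugt8a, where 12.5% of all genes tested were. Without AAV control IP #3, the members lower in IP numbered 15 in AAV control, where 14.1% of all tested genes were lower. Trf was one of them, at a log2 fold change of -1.49 (adjusted p = 0.0435) against 1.10 (adjusted p = 0.462) with all libraries and 1.05 (adjusted p = 0.0233, called higher) without the FPKM filter.

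Car2 and Gsn were called higher in IP in all 3 conditions, at IP to input ratios of FPKM of 3.21, 3.41 and 3.99 for Car2 and 3.95, 6.34 and 7.67 for Gsn in AAV control. Their ratios in KA were 3.37, 2.81 and 2.24 for Car2 and 4.25, 4.31 and 4.57 for Gsn, and those in PBS were 3.40, 3.27 and 2.90 for Car2 and 4.76, 3.20 and 6.06 for Gsn. The ratios of both genes thus exceeded 1 in all 9 homogenates. Olig1 was called higher in IP in AAV control and in KA, and its ratio exceeded 1 in all 9 homogenates.

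The other members mostly had ratios below 1 in AAV control #1 and #2 and above 1 in KA. Trf had ratios of 0.354, 0.635 and 3.03 in AAV control, 0.719, 0.412 and 1.54 in PBS and 5.98, 5.20 and 4.15 in KA. Mbp had ratios of 0.371, 0.450 and 0.983 in AAV control, 0.514, 0.390 and 0.924 in PBS and 2.59, 2.09 and 1.91 in KA. The KA ratios were above every control ratio for both genes.

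Over the members with at least 10 counts in both libraries, the median ratio per homogenate was 0.415, 0.622 and 1.26 in AAV control, 0.709, 0.510 and 1.25 in PBS and 2.44, 2.09 and 1.45 in KA. The 3 KA homogenates were above all 6 control homogenates, and sample #3 was the highest in both control groups and the lowest in KA. The median over all genes with at least 10 counts in both libraries was 0.824 to 1.10. Of the 36 members with a ratio in every homogenate of a condition, 26 exceeded 1 in all 3 KA homogenates, 5 in all 3 AAV control homogenates and 5 in all 3 PBS homogenates. Ratios below 1 in all 3 homogenates were held by 6 members in KA, 7 in AAV control and 13 in PBS. The shares of all genes with these patterns are not given here, so the counts alone do not set the members apart.

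**Figure D4:**
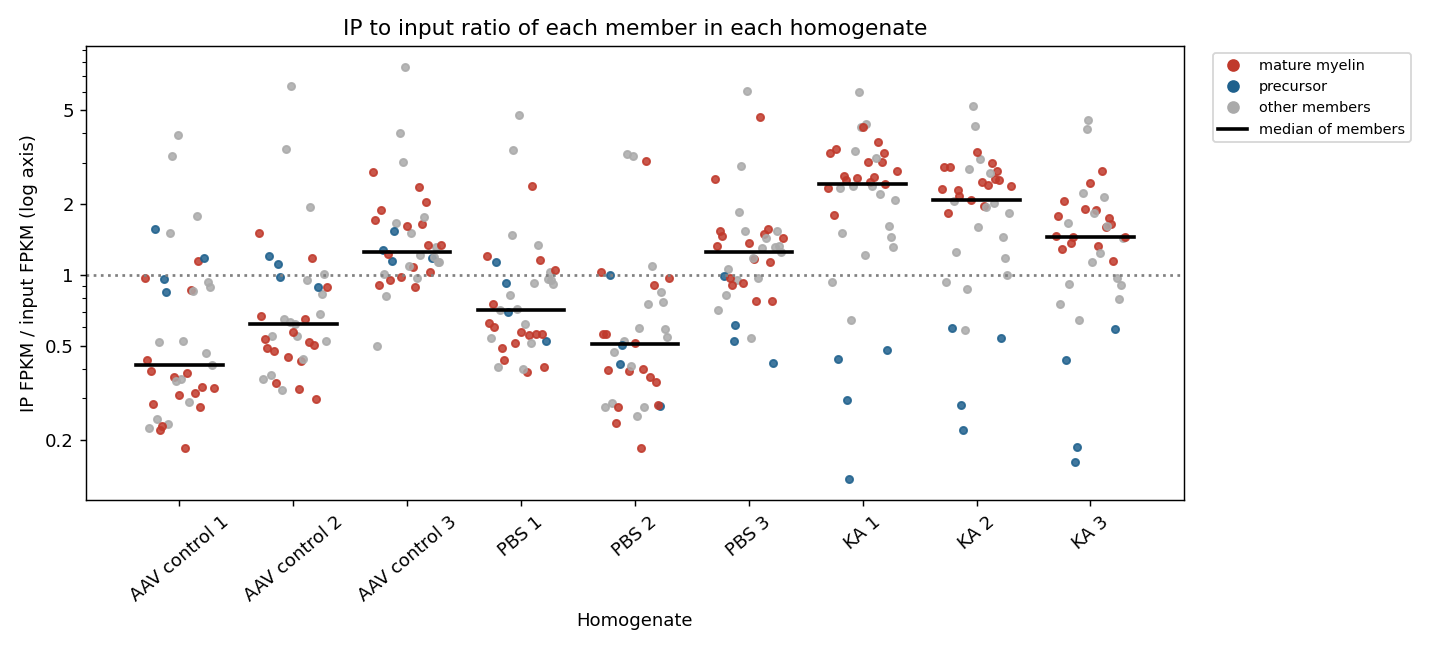
IP FPKM divided by input FPKM (log axis) for each member with at least 10 counts in both libraries, in each of the 9 homogenates, with mature, precursor and other members in different colours and a bar at the median of the members. The medians are 1.45 to 2.44 in KA and 0.415 to 1.26 in the controls, and the 2 lowest points of each KA homogenate are the precursor genes Pdgfra and Gpr17.

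Precursor genes did not follow the mature genes. Pdgfra, the receptor for platelet-derived growth factor, had 0.206, 0.364 and 0.209 FPKM in KA IP, from 23, 38 and 23 counts, against 1.38, 1.62 and 1.5 in AAV control IP and 0.990, 0.638 and 0.922 in PBS IP. All 3 KA IP libraries were below all 6 control IP libraries. In input Pdgfra had 1.52, 1.65 and 1.13 FPKM in KA, 1.62, 1.64 and 0.967 in AAV control and 1.42, 1.26 and 1.5 in PBS, and these ranges overlapped.

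Cspg4, the NG2 proteoglycan, had 0.497, 0.628 and 0.398 FPKM in KA IP, 1.36, 1.17 and 1.20 in AAV control IP and 0.936, 0.785 and 0.838 in PBS IP, with no overlap between KA and either control. Gpr17, a receptor of committed precursors, had 0.692, 0.591 and 0.316 FPKM in KA IP, 1.22, 1.01 and 2.0 in AAV control IP and 1.23, 0.640 and 1.03 in PBS IP, so that KA overlapped with PBS. In input Gpr17 had 2.34, 2.10 and 1.96 FPKM in KA, above the 1.28, 0.907 and 1.74 of AAV control and the 1.32, 1.52 and 1.95 of PBS. In input it was tested against PBS and not called, and without the FPKM filter it was called against neither control.

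These 3 genes were below the FPKM filter in IP, so the test of them comes from the fit without that filter. There Pdgfra was lower in KA than in AAV control by a log2 fold change of -2.40 (SE 0.32, adjusted p = 5.28e-12), Gpr17 by -1.31 (SE 0.36, adjusted p = 0.00333) and Cspg4 by -1.17 (SE 0.29, adjusted p = 0.000805). In that fit 21 of the 37 members were called higher and these 3 lower, where 5.01% of all genes tested were higher and 3.9% lower. Against PBS Pdgfra was called lower in the fit without the filter (-1.51, SE 0.33, adjusted p = 6.32e-05), and Cspg4 (-0.57, adjusted p = 0.158) and Gpr17 (-0.66, adjusted p = 0.203) were not, where 7.92% of all genes tested were lower and 5.49% higher. The median log2 fold change over all genes in that fit was -0.56, close to the values of Cspg4 and Gpr17. Myrf and Enpp6, also below the filter against AAV control, were higher without it, by 1.57 (SE 0.25, adjusted p = 2.12e-08) and 1.25 (SE 0.30, adjusted p = 0.000484). Nkx2-2 had at most 35 counts in a library and was not called.

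Lhfpl3, a tetraspan protein gene of precursors, was the exception among the 4. It had 10.9, 7.87 and 7.05 FPKM in KA input, 3.08, 3.39 and 2.97 in AAV control input and 3.81, 3.62 and 4.50 in PBS input, with no overlap, and rose by 1.44 (SE 0.18, adjusted p = 0.00521) against AAV control and 1.10 (SE 0.16, adjusted p = 0.000739) against PBS. In IP it had 5.23, 4.24 and 4.17 FPKM in KA, 3.62, 3.03 and 3.5 in AAV control and 2.0, 1.01 and 1.90 in PBS. It was called against PBS (log2 fold change 1.48, SE 0.24, adjusted p = 0.00134) and not against AAV control (0.47, SE 0.19, adjusted p = 0.120). Lhfpl3 overlaps 6 other annotated genes, and their reads could not be set apart.

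As a description of the balance of stages, the mean log2(FPKM + 1) of the 16 mature genes minus that of the 4 precursor genes was 4.34 ± 0.38 (SD, n = 3) in KA IP, 2.27 ± 0.84 in AAV control IP and 2.61 ± 0.44 in PBS IP. Single libraries were at 4.74, 4.31 and 3.98 in KA IP, 1.57, 2.05 and 3.20 in AAV control IP and 2.36, 2.35 and 3.12 in PBS IP, so that KA IP lay above all 6 control IP libraries. Over the 15 mature genes and Lhfpl3 that had FPKM above 1 in all libraries the groups overlapped, with 3.37, 3.18 and 2.70 in KA IP, 0.976, 1.57 and 2.79 in AAV control IP and 2.10, 2.29 and 2.85 in PBS IP. In input the order was different, with 2.45 ± 0.09 in KA, 2.89 ± 0.07 in AAV control and 2.56 ± 0.22 in PBS. The KA input libraries (2.46, 2.35 and 2.54) were below all AAV control input libraries (2.88, 2.83 and 2.97) and overlapped with PBS input (2.67, 2.70 and 2.30). The precursor mean alone was 1.80 ± 0.14 in KA input, 1.36 ± 0.02 in AAV control input and 1.45 ± 0.09 in PBS input. Lhfpl3, with its overlapping genes, averaged 8.59 FPKM in KA input and 3.15 in AAV control input, and Gpr17 2.14 and 1.31, while Pdgfra averaged 1.43 and 1.41 and Cspg4 1.03 and 0.923. Of these 4 genes only Lhfpl3 was called between KA and a control in input, with or without the FPKM filter.

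**Figure D5:**
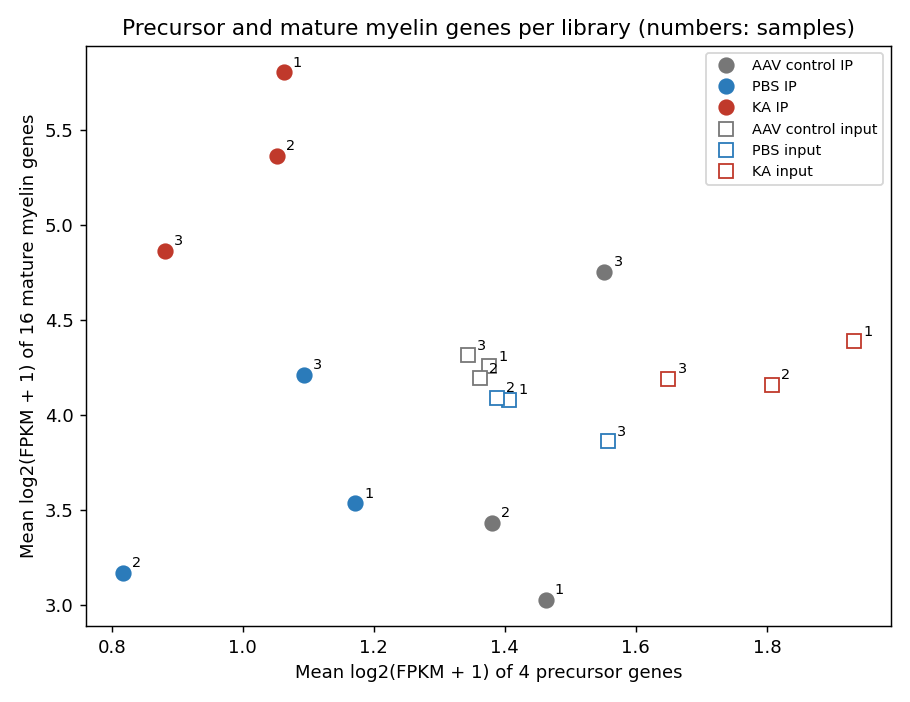
Mean log2(FPKM + 1) of the 16 mature myelin genes (vertical) against that of the 4 precursor genes (horizontal) in each library, with circles for IP, squares for input, colours for conditions and numbers for samples. KA IP libraries are at the top left (mature means 4.86 to 5.80), AAV control IP #3 is above the other AAV control IP libraries, and KA input libraries are the farthest right (precursor means 1.65 to 1.93).

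The median IP to input ratio of the precursor genes was 0.367, 0.410 and 0.311 in KA, 1.07, 1.05 and 1.23 in AAV control and 0.812, 0.463 and 0.570 in PBS. That of the mature genes was 2.70, 2.45 and 1.63 in KA, 0.332, 0.513 and 1.34 in AAV control and 0.568, 0.396 and 1.35 in PBS. Pdgfra had the lowest ratios of the 37 in KA #1 and #2, at 0.136 and 0.220, and Gpr17 in KA #3, at 0.161. Mature genes were thus above precursor genes in all 3 KA homogenates, and the order was the opposite in AAV control #1 and #2.

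Other genes of the lineage from lists named from general knowledge were counted in the same fits. Of 47 further oligodendrocyte genes, 32 were tested between KA and AAV control in IP, 11 rose and 1 fell, where 6.39% of all genes tested were called higher and 5.22% lower. Galnt6 rose by a log2 fold change of 2.63 (SE 0.43, adjusted p = 0.00590), and Sox8 fell. Against PBS 17 of 35 rose and 1 fell (8.08% and 9.34% of all genes tested), with Apod the largest of those that rose (log2 fold change 5.22, SE 0.57, adjusted p = 0.000138), and Galnt6 rose by 2.88 (SE 0.36, adjusted p = 0.000280).

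Of 18 further precursor genes, 10 were tested between KA and AAV control in IP, 3 fell and 0 rose by edgeR, where 5.22% of all genes tested were called lower. Among them were Ptprz1 (log2 fold change -1.49, SE 0.24, adjusted p = 0.00523) and Cacng4 (-1.47, SE 0.29, adjusted p = 0.0119). Ptprz1, a receptor phosphatase that astrocytes express too, had 10.6, 12.2 and 8.43 FPKM in KA IP and 36.9, 35.2 and 19.8 in AAV control IP. Against PBS 2 of 10 fell (9.34% of all genes tested), Ptprz1 among them, and Matn4 rose. In input 3 of 37 tested oligodendrocyte genes rose against AAV control (Anxa3, Apod and Il33), where 2.52% of all genes tested were called higher. Anxa3 had the largest change at 2.20 (SE 0.22, adjusted p = 0.00170). Against PBS in input 3 of 37 rose (Anxa3, Apod and Galnt6), where 4.26% of all genes tested were called higher. Of the further precursor genes in input, edgeR called 0 of 11 against AAV control (5 at an unadjusted p under 0.05) and 0 of 10 against PBS (7 at an unadjusted p under 0.05). An unadjusted p under 0.05 was held by 1939 of all 10809 genes tested against AAV control and by 4337 of all 10849 against PBS. Without the filter all 18 further precursor genes were tested in IP, and their directions were mixed. Against AAV control 3 rose (Matn4, Megf11 and Sulf2) and 5 fell, where 5.01% of all genes tested were higher and 3.9% lower. Against PBS the same 3 rose and 2 fell, where 5.49% were higher and 7.92% lower.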

How the data were processed

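Counts per gene and FPKM were deposited by the authors for each of the 18 libraries. The labels and methods name STAR, the mm10 build, featureCounts, edgeR and limma voom. Strandedness, the gene annotation and the treatment of reads that map to several places are not given in the sources used here. The deposited FPKM values matched the counts after division by gene length and library total, within 1%, for 99.8% of 34337 genes checked. Of the members, 20 overlap another gene in GENCODE M21 and 17 overlap one on the opposite strand, among them Mbp, Mog, Cnp, Lhfpl3, Pdgfra and Gpr17. Without strand, their reads cannot be told apart.

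Counts were tested with edgeR 4.0.16 (R 4.3.3, TMM scaling, quasi-likelihood F-test, Benjamini-Hochberg adjustment over all tested genes), in the 6 libraries of a comparison or the 12 of an interaction, for genes with FPKM above 1 in all of them. The threshold was an adjusted p under 0.05 with a log2 fold change of at least 1 in size. The tests were checked on simulated data. DESeq2 1.42.0, limma 3.58.1 (voom), other scalings, no filter, a replicate block, the sequencing run as a covariate, run 1 alone and each library left out were alternatives. Ratios of IP to input used genes with at least 10 counts in both libraries. The stage difference used a pseudocount of 1.

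The members and gene lists were chosen with earlier results of these data known. Genes given in full were the 4 precursor genes and, for each other role group, up to 4 genes called between KA and AAV control with the largest change. From the further oligodendrocyte and precursor lists, the 3 called genes with the largest change were to be named, and some of them are not reported here. Others are marked as chosen after their values were seen. Replicates were separate pools of mice. Same-numbered samples of KA and AAV control deviated together (correlations 0.349, 0.529 and 0.552 in IP and 0.351, 0.443 and 0.549 in input). In both fractions not every library correlated best with the library of its own number, and #1 and #2 shared run 1. A pairing by number was thus not set apart from the run. IP and input of a number came from the same homogenate (correlations 0.155 to 0.752).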

Additional observations from a re-analysis of the deposited data

Results flagged for a closer look

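By the interaction test, the effect of KA was not the same in IP as in input for 8 members with AAV control as baseline and 18 with PBS as baseline. The 7 members called with both baselines, which share the KA libraries, differed on the log2 scale as follows. Tmem88b differed by 2.43 with AAV control and 2.12 with PBS as baseline, Cldn11 by 2.34 and 2.35, and Ndrg1 by 2.0 and 2.08. Tspan2 differed by 1.91 and 1.79, Mobp by 1.79 and 1.81, Cntn2 by 1.59 and 1.07, and Qdpr by 1.45 and 1.48. All had a larger KA effect in IP.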

How the results depend on the processing

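No member called between KA and a control changed direction under any alternative, whereas Trf turned between PBS and AAV control in IP and between IP and input in AAV control without AAV control IP #3. Of the 12 members called between KA and AAV control in IP, Cntn2, Qdpr and Tmem88b were called under every alternative. Cntn2 and Qdpr are among the members also known from other cells. The number called was 24 without the FPKM filter, 19 with the sequencing run as covariate and 26 in run 1 alone. It was 16 with the replicate block, and 3 to 25 with a library left out. Between KA and AAV control in input, 2 were called with the replicate block, with the run as covariate and in run 1 alone, and 1 to 2 with a library left out. Between PBS and AAV control, 1 was called in IP and 1 in input without the filter, and 0 to 2 in IP and 0 to 1 in input with a library left out. Between IP and input, 4 to 18 were called in AAV control with a library left out, and in PBS 8 without the filter and 3 to 11 with a library left out. Of all genes, 5736 of 37110 were called in PBS without the filter. With a library left out, 2395 to 2810 of all genes tested were called in AAV control and 2748 to 3051 in PBS. The interaction with AAV control as baseline gave 25 without the filter, 22 with a larger and 3 with a smaller KA effect in IP. It gave 14 by DESeq2, 21 with the replicate block and 0 to 23 with a sample left out. Where no share of all genes is given for an alternative, its count alone does not set the members apart. The cause of these moves was not tested.

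Same-numbered PBS samples shared only a number with the other groups (correlations from -0.294 to 0.355). With the number as a replicate block, 23 members were called between KA and PBS in IP, 3 in input and 18 in the interaction. In the same order, 1635 of all 9847, 589 of all 10849 and 1364 of all 9305 genes tested were called. Between PBS and AAV control edgeR called 0 members in IP or input with this block, where 0 of 10667 and 1 of 10924 genes tested were called. With library totals alone as scaling the median log2 fold change over all genes was -0.14 for IP against input in AAV control and -0.21 in KA, and without the filter it was -0.56 for KA against PBS in IP.

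With a pseudocount of 0.1 the stage difference was 5.84, 5.29 and 5.23 in KA IP, 1.88, 2.49 and 3.66 in AAV control IP, 2.93, 3.15 and 3.82 in PBS IP, 2.82, 2.72 and 2.99 in KA input, 3.40, 3.37 and 3.51 in AAV control input and 3.17, 3.22 and 2.72 in PBS input. Over members with FPKM above 1 in all libraries, which leaves Lhfpl3 of the precursor genes and 15 mature genes, it was 3.37, 3.18 and 2.70 in KA IP, 0.976, 1.57 and 2.79 in AAV control IP, 2.10, 2.29 and 2.85 in PBS IP, 1.01, 1.19 and 1.36 in KA input, 2.41, 2.25 and 2.52 in AAV control input and 2.0, 2.07 and 1.57 in PBS input. KA IP #3 was then below AAV control IP #3 and PBS IP #3. Depth limits the low members, as Pdgfra rests on 23 to 38 counts in KA IP and Nkx2-2 on as few as 4 in a library.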
